A study of Mus musculus with 6 samples.

Results

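The transforming growth factor beta (TGF-beta) pathway is represented here by 10 genes, chosen by name from the 26776 genes of the deposited table. They are the ligand gene Tgfb1, the latent ligand binding protein gene Ltbp3, the receptor genes Tgfbr1, Tgfbr2 and Tgfbr3, and the signal transducer genes Smad2, Smad3, Smad4, Smad6 and Smad7. All 10 were found, and all 10 passed the filter on low counts. RNA came from long-term hematopoietic stem cells (LT-HSCs) of the bone marrow of Trim47+/eGFP mice, whose genotype name places an enhanced green fluorescent protein on 1 of the 2 alleles of the tripartite motif gene Trim47. Cells of this genotype were sorted into a dim population (eGFPlo, 3 libraries) and a bright population (eGFPhi, 3 libraries), so both groups carry the reporter and there is no group without it. The labels give neither age, sex, sort gate nor number of animals, and do not say whether replicates are separate animals or pools. The p-values therefore measure only the spread between these libraries, which may be technical.

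TGF-beta is secreted as a latent complex in which the growth factor stays bound to its own propeptide and to a latent TGF-beta binding protein. Once released, it binds a type II receptor kinase, which phosphorylates a type I receptor kinase, and this in turn phosphorylates Smad2 and Smad3. These receptor-regulated Smads join the common partner Smad4 and enter the nucleus, while Smad6 and Smad7 are inhibitory Smads that restrain the receptors and are themselves induced by signals of the family. In bone marrow, TGF-beta is known as a factor that holds hematopoietic stem cells in quiescence.

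Total counts ran from 11221070 to 26058391 per library. Trim47, whose reporter was sorted on, stood at 7.28, 8.18 and 8.92 CPM in eGFPlo and at 21.6, 26.2 and 23.3 CPM in eGFPhi (2.91-fold, edgeR adjusted p = 1.69e-05), in the direction of the sort that selected these cells. CPM are counts relative to the scaled library size. Marker genes of other cells differed between the groups. For the counts that follow, 32.3% of all 18081 tested genes were higher in eGFPhi and 31.7% lower (edgeR adjusted p under 0.05). All 10 genes of granulocyte-monocyte progenitors were lower in eGFPhi, with a summed level of 5499 to 5599.6 CPM in the eGFPlo libraries and 397 to 406 CPM in the eGFPhi libraries. All 12 B cell genes were lower too (6173 to 6262 against 736 to 761 CPM), with Vpreb3 and Igll1 at 0 in eGFPhi. Of 9 tested megakaryocyte and platelet genes 8 were higher and 1 lower in eGFPhi (141 to 156 against 371 to 381 CPM). Most of the rise in this sum came from Vwf, with means of 16.4 CPM in eGFPlo and 187 CPM in eGFPhi. The lower gene was Ppbp, at 5.40, 5.66 and 5.37 CPM in eGFPlo and 0, 0.192 and 0 CPM in eGFPhi. Gp6, at 0 in eGFPhi, had counts too low to be tested. Of 6 tested T and NK cell genes 5 were lower (71.2 to 72.8 against 14.2 to 16.1 CPM), with Trbc2 at 0 in eGFPhi. Cd3e, Cd3d, Cd3g and Cd8a were also at 0 in eGFPhi, but their counts were too low to be tested and are not in these sums. Of 8 tested monocyte and macrophage genes 7 were lower (106 to 107 against 28.7 to 30.7 CPM), as were 7 of 10 erythroid genes (167 to 169 against 93.8 to 104 CPM) and 7 of 7 mast cell and basophil genes (70.2 to 86.2 against 14.7 to 15.4 CPM). Neutrophil genes summed to 179.6 to 187 CPM in eGFPlo and 180.1 to 187 CPM in eGFPhi, with 2 of 9 higher and 1 lower. Of 6 tested endothelium and stroma genes 4 were higher and 2 lower (103 to 109.5 against 116 to 122 CPM). Lepr, at 0 in eGFPlo, and Cdh5, at 0 in eGFPhi, had counts too low to be tested. Of the 11 HSC markers 8 were higher in eGFPhi, and the only ones lower were Cd34 and Flt3, which common LT-HSC gates select against and which stood at 242 ± 1.73 and 167 ± 1.79 CPM in eGFPlo and at 146 ± 3.49 and 73.3 ± 4.32 CPM in eGFPhi (SD, n = 3). The part of other cells in the differences below was not tested, and in bulk RNA fewer cells of a type cannot be told apart from less RNA per cell.

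Among the 10 genes, 6 were higher in eGFPhi, 1 was lower and 3 did not pass the threshold (edgeR quasi-likelihood test, Benjamini-Hochberg adjusted p under 0.05 over all 18081 genes tested). Tgfbr3, Ltbp3 and Smad6 rose more than 2-fold, Smad3, Smad4 and Smad7 rose by less than 1.5-fold, and the ligand gene Tgfb1 fell. The kinase receptor genes Tgfbr1 and Tgfbr2 and the transducer gene Smad2 did not pass. Across all tested genes 32.3% were higher and 31.7% lower, together 64.0%, so a count of 7 in 10 past the threshold is near the background. The groups did not overlap for 7 of the 10 genes, against 69.8% of all genes tested. The median log2 fold change (eGFPhi over eGFPlo) of the 10 genes was 0.32, and it was 0.00 over all genes. Their median absolute change was 0.45, close to the 0.44 of all genes.

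**Figure D1:**
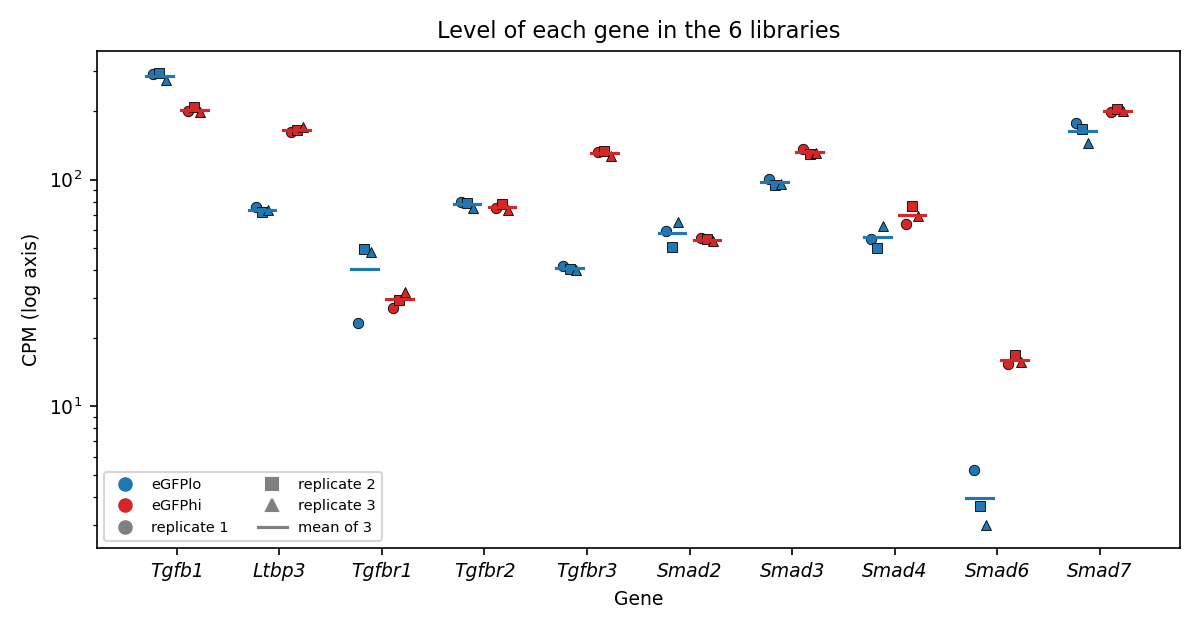
Level of each of the 10 genes in CPM on a log axis; points are the 6 libraries (blue eGFPlo, red eGFPhi, shape by replicate) and lines the means of 3. Tgfbr3, Ltbp3 and Smad6 are widely separated between the groups, Tgfb1 is lower in eGFPhi, and 1 eGFPlo point of Tgfbr1 at 23.4 CPM lies apart from the other two.

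Tgfb1 (ENSMUSG00000002603, GRCm38 chromosome 7, 25687002 to 25705077, plus strand) encodes the ligand TGF-beta 1. Its level was 292, 294 and 275 CPM in the eGFPlo libraries and 201, 208 and 199 CPM in the eGFPhi libraries. Every eGFPhi library lay below every eGFPlo library. The means were 287 ± 10.6 and 203 ± 4.56 CPM (SD, n = 3 each), so that eGFPhi was 1.42-fold lower (log2 fold change -0.50, SE 0.03, edgeR adjusted p = 1.25e-05). Tgfb1 was still among the best measured genes, above 96.6% of tested genes by mean CPM. Its fall was below a fold of 1.5, and it did not pass when the coefficient of variation between libraries was set to 0.2 (adjusted p = 0.0839). In the same eGFPhi libraries progenitor, B cell and T cell markers were mostly lower. Megakaryocyte and platelet markers were mostly higher, and neutrophil markers were similar in sum. Whether any of these bear on Tgfb1 was not tested.

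Ltbp3 (ENSMUSG00000024940, chromosome 19, 5740904 to 5758532, plus strand) encodes a matrix protein that holds latent TGF-beta and helps to secrete and place it. It went the opposite way from the ligand gene. It stood at 75.7, 71.6 and 73.4 CPM in eGFPlo and at 162, 165 and 171 CPM in eGFPhi, with a wide gap between the groups. Means were 73.6 ± 2.09 and 166 ± 4.44 CPM, a rise of 2.26-fold (log2 fold change 1.18, SE 0.04, edgeR adjusted p = 2.86e-07). With each library left out in turn the log2 fold change was between 1.15 and 1.20.

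The promoters of this pair, which moved in opposite directions, are printed from RefSeq on GRCm38.p6, from 250 bases before to 50 bases after the transcript start, 5′ to 3′ on the gene's strand. The Tgfb1 window is chr7:25686752-25687051 (plus strand) and the Ltbp3 window chr19:5740650-5740949 (plus strand). Capitals mark the Smad-binding letters CAGAC and the GC box GGGCGG on either strand.
Tgfb1: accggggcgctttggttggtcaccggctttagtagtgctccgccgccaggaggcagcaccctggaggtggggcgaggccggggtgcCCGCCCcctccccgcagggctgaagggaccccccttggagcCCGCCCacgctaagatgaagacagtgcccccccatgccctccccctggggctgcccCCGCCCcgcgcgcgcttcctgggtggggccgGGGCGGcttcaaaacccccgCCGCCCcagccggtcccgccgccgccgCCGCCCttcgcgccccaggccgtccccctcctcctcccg
Ltbp3: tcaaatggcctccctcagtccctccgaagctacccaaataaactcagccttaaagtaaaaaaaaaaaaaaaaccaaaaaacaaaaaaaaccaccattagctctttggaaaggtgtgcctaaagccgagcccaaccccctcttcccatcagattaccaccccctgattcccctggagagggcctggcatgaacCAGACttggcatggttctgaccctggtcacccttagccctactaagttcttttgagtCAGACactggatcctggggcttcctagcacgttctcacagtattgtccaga

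The Tgfb1 window was 77% G and C and held the GC box 6 times, 1 forward and 5 on the reverse strand, and CAGAC 0 times. The Ltbp3 window was 48.0% G and C, below the median of 52.7% over all promoters, and held CAGAC 2 times on the forward strand, beginning 58 bases and 1 base before the start, and the GC box 0 times. Of 32851 promoters of the same length 49.6% held CAGAC and 35.7% the GC box on either strand, so neither match is rare. A match describes the letters and no binding was measured. Only 1 RefSeq window per gene was examined. Its transcribed end was found in 1 of 5 annotated transcripts of Tgfb1 and in 2 of 12 of Ltbp3, and windows of other starts were not examined.

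Tgfbr3 (ENSMUSG00000029287, chromosome 5, 107106570 to 107289629, minus strand) encodes betaglycan, a co-receptor without kinase activity that presents TGF-beta ligands to the type II receptor and also binds inhibin. It had the smallest p of the 10 genes. Its level was 41.5, 40.2 and 40.0 CPM in eGFPlo and 132, 133 and 127 CPM in eGFPhi. The values within a group were close together and the groups far apart. Means were 40.6 ± 0.784 and 131 ± 3.20 CPM, and Tgfbr3 thus rose 3.23-fold (log2 fold change 1.69, SE 0.04, edgeR adjusted p = 6.88e-08), and 12.0% of tested genes had a larger absolute change. Leaving out each library gave 1.68 to 1.71. Tgfbr3 shares 297 exon bases with the predicted gene Gm43422 on its own strand, which had 362 counts in all against 9209 for Tgfbr3. By Euclidean distance of the 6 mean-centred log2 CPM values, the tested genes most like Tgfbr3 were Nkx2-3 (distance 0.0642), Abi3 (0.0859) and Dst (0.0892). With 2 groups of 3 libraries such likeness mostly reflects an equal fold, which was 3.16, 3.27 and 3.16.

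Tgfbr2 (ENSMUSG00000032440, chromosome 9, 116084293 to 116175360, minus strand) encodes the type II receptor kinase that binds the ligand first. Its libraries read 79.6, 78.5 and 75.1 CPM in eGFPlo and 74.9, 78.3 and 73.7 CPM in eGFPhi, and the groups overlapped. The means were 77.7 ± 2.31 and 75.7 ± 2.37 CPM (log2 fold change -0.04, edgeR adjusted p = 0.457). The 95% interval of the log2 fold change ran from -0.13 to 0.06.

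Tgfbr1 (ENSMUSG00000007613, chromosome 4, 47353222 to 47414931, plus strand) encodes the type I receptor kinase ALK5, which phosphorylates Smad2 and Smad3. It read 23.4, 49.5 and 47.8 CPM in the eGFPlo libraries and 27.2, 29.5 and 32.0 CPM in the eGFPhi libraries. The first eGFPlo library was below all 3 eGFPhi libraries and the other eGFPlo libraries were above them. Over all 6 libraries the fold change did not pass, at 40.2 ± 14.6 against 29.6 ± 2.36 CPM (log2 fold change -0.45, 95% interval -1.03 to 0.13, edgeR adjusted p = 0.149). Without eGFPlo replicate 1 it was -0.72 with an adjusted p of 3.95e-04, so a single library decides the call. That library's 273 counts put its level at 20.7 to 26.3 CPM (exact 95% Poisson interval, counting error only), against 45.9 to 53.3 and 44.7 to 51.1 CPM in the other eGFPlo libraries. It stood at 48.1% of their mean. Departures of this kind were rare: of 10036 genes with a mean of at least 10 CPM, 41 (0.409%) were below 60% of both other libraries in eGFPlo replicate 1, and the number was 38 to 45 in each of the other libraries. Tgfbr1 was the only one of the 10 genes among these.

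**Figure D2:**
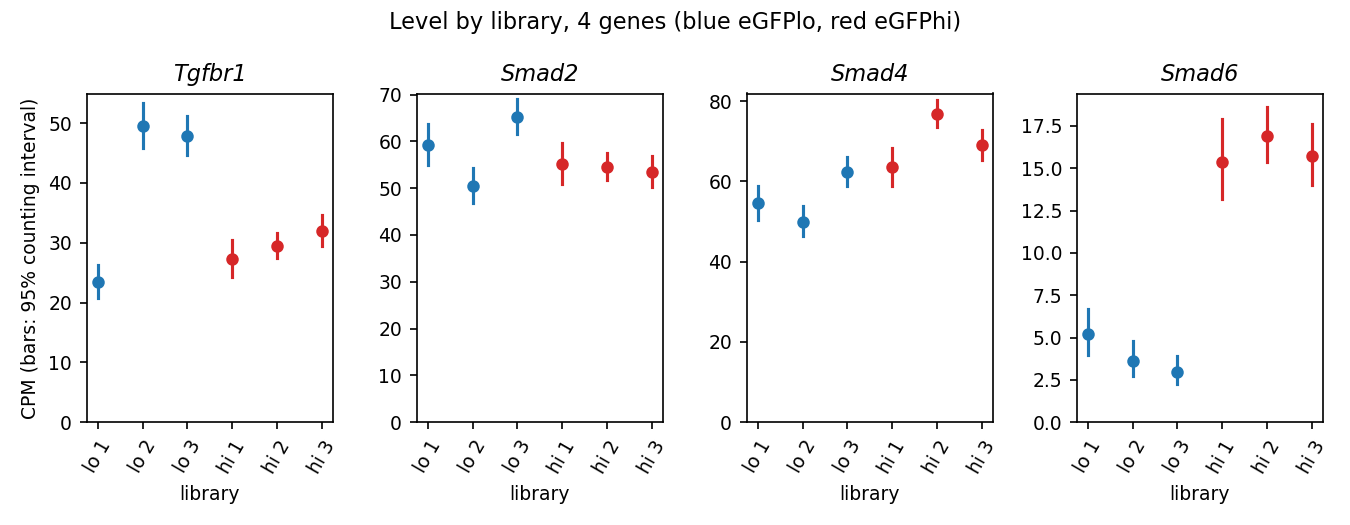
CPM of Tgfbr1, Smad2, Smad4 and Smad6 in each library (lo, eGFPlo; hi, eGFPhi), with exact 95% counting intervals as bars. For Tgfbr1 the first eGFPlo library lies at 23.4 CPM, far below the other eGFPlo libraries, while all 3 eGFPhi values of Smad6 lie above the eGFPlo values.

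Smad6 (ENSMUSG00000036867, chromosome 9, 63953076 to 64022059, minus strand) encodes an inhibitory Smad that acts mainly on the bone morphogenetic protein (BMP) branch of the family. It was the least abundant of the 10 genes in CPM and had the largest fold change of them. It read 5.23, 3.63 and 2.99 CPM in eGFPlo, from 61, 52 and 54 counts, and 15.4, 16.9 and 15.7 CPM in eGFPhi, from 173, 440 and 306 counts. Each eGFPhi library lay well above every eGFPlo library. Means were 3.95 ± 1.15 and 16 ± 0.794 CPM, and Smad6 thus rose 4.14-fold (log2 fold change 2.05, SE 0.18, edgeR adjusted p = 5.01e-05), and 9.11% of tested genes changed more. The log2 fold change moved with the library left out, from 1.87 without eGFPlo replicate 3 to 2.28 without eGFPlo replicate 1.

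Smad3 (ENSMUSG00000032402, chromosome 9, 63646767 to 63757994, minus strand) encodes a receptor-regulated Smad that binds DNA directly, and its gene lies 195.1 kb from Smad6 on the same strand. It read 101, 95.1 and 95.3 CPM in eGFPlo and 136, 129.8 and 131 CPM in eGFPhi, without overlap. Smad3 rose 1.36-fold between means of 97.1 ± 3.32 and 132 ± 3.12 CPM (log2 fold change 0.45, SE 0.04, edgeR adjusted p = 3.54e-05). Both neighbours rose, Smad6 by far more. With a coefficient of variation of 0.2 Smad3 did not pass (adjusted p = 0.134).

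The promoters of these neighbours are printed from the same RefSeq table (GRCm38.p6), since both genes rose. The Smad3 window is chr9:63757945-63758244 and the Smad6 window chr9:64022010-64022309, both on the minus strand and printed 5′ to 3′ in the direction of transcription. Capitals mark the GC box GGGCGG on either strand and the palindromic Smad-binding letters GTCTAGAC.
Smad3: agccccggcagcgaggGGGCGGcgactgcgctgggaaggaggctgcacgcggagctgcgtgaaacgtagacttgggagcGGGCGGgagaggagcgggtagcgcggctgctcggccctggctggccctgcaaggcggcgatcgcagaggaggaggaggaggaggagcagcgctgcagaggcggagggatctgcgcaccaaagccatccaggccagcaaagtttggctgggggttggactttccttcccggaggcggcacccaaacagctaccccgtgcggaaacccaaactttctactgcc
Smad6: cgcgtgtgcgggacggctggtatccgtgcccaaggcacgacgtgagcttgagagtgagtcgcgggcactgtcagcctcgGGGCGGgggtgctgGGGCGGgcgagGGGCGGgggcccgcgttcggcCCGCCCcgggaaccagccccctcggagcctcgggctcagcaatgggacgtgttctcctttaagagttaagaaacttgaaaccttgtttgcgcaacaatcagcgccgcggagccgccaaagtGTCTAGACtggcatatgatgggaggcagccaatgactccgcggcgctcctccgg

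Here too 1 window per gene was examined, and its transcribed end was found in 1 of 5 annotated transcripts of Smad3 and 1 of 3 of Smad6. The Smad3 window held the GC box 2 times on the forward strand and the Smad6 window 4 times, 3 forward and 1 reverse. GTCTAGAC is a palindrome that does not contain CAGAC, and it was added to the search after the sequences were seen. It occurred 1 time in the Smad6 window, beginning 4 bases before the transcript start, and 0 times in the Smad3, Tgfb1 and Ltbp3 windows. Over all 32851 promoters 70, or 0.213%, held it. CAGAC was found in neither window, and the letters GGCGCC, a GC-rich Smad site held by 11.9% of promoters, were found in none of the 4 windows. The letters CCAAT, held by 37.4% of promoters, occurred 1 time in the Smad6 window, 24 bases after the start on the printed strand, and in none of the other windows.

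Smad7 (ENSMUSG00000025880, chromosome 18, 75367529 to 75395935, plus strand) encodes the inhibitory Smad that recruits ubiquitin ligases to the activated TGF-beta receptor. It read 178, 167 and 145 CPM in eGFPlo and 199, 204 and 200.4 CPM in eGFPhi. The lowest eGFPhi library was above the highest eGFPlo library, though the eGFPlo values were spread. Smad7 rose 1.23-fold between means of 163 ± 16.4 and 201 ± 2.75 CPM (log2 fold change 0.30, SE 0.07, edgeR adjusted p = 0.00511). Without eGFPlo replicate 3, the lowest library, the log2 fold change was 0.22. With a coefficient of variation of 0.2 Smad7 did not pass (adjusted p = 0.347).

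Smad4 (ENSMUSG00000024515, chromosome 18, 73639009 to 73703780, minus strand) encodes the common partner of the receptor-regulated Smads. It read 54.5, 50 and 62.4 CPM in eGFPlo and 63.5, 76.8 and 69.0 CPM in eGFPhi. The groups did not overlap, but the highest eGFPlo and the lowest eGFPhi library were close. Smad4 rose 1.26-fold between means of 55.6 ± 6.26 and 69.8 ± 6.71 CPM (log2 fold change 0.33, SE 0.10, edgeR adjusted p = 0.0186). The call rests on single libraries: without eGFPlo replicate 1, eGFPlo replicate 2 or eGFPhi replicate 2 the adjusted p was 0.0549, 0.0583 and 0.0598, and with a coefficient of variation of 0.2 it was 0.302.

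Smad2 (ENSMUSG00000024563, chromosome 18, 76241580 to 76310963, plus strand) encodes the other receptor-regulated Smad of this branch. It read 59.2, 50.4 and 65.3 CPM in eGFPlo and 55.2, 54.6 and 53.4 CPM in eGFPhi, which lay inside the eGFPlo range. The means were 58.3 ± 7.49 and 54.4 ± 0.893 CPM (log2 fold change -0.10, 95% interval -0.31 to 0.10, edgeR adjusted p = 0.342). Without eGFPlo replicate 2, the lowest library, the log2 fold change was -0.20 and passed (adjusted p = 0.0217), and without eGFPlo replicate 3, the highest, it was -0.01 (adjusted p = 0.91).

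**Figure D3:**
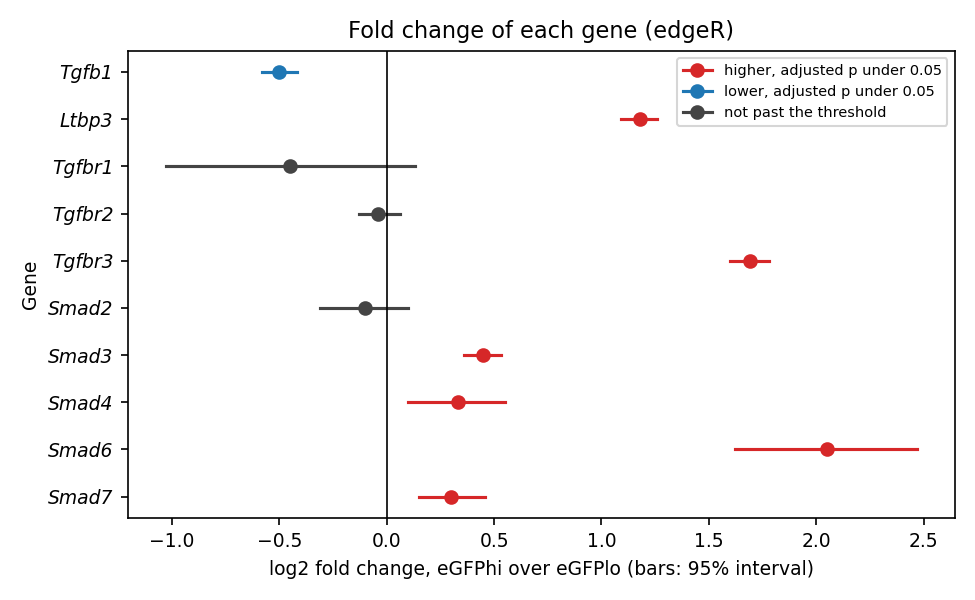
Log2 fold change (eGFPhi over eGFPlo, edgeR) of each gene with its 95% interval. Smad6 at 2.05, Tgfbr3 at 1.69 and Ltbp3 at 1.18 are highest, Tgfb1 at -0.50 is the one gene called lower, and the intervals of Tgfbr1, Tgfbr2 and Smad2 include 0.

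Ratios between genes of like function, taken within a library, do not depend on the scaling between libraries. The log2 ratio of Smad2 to Smad3 was lower in every eGFPhi library, at -0.74 ± 0.19 in eGFPlo and -1.28 ± 0.03 in eGFPhi (SD, n = 3), a difference of -0.54. That of Smad6 to Smad7 was higher in every eGFPhi library, at -5.36 ± 0.27 and -3.64 ± 0.05, a difference of 1.72. In an exact two-sided permutation test each gave p = 0.1, the smallest that 3 libraries against 3 allow, and 0.15 after Benjamini-Hochberg adjustment over the 3 pairs compared. The log2 ratio of Tgfbr1 to Tgfbr2 overlapped between the groups, at -1.03 ± 0.64 and -1.36 ± 0.13 (exact permutation p = 0.4, adjusted 0.4). These ratios follow from the single-gene values and add no independent measurement.

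Levels of different genes can be set against each other only per length, here as CPM per kilobase of merged annotated exons. In eGFPlo the ligand gene Tgfb1 was highest at 56.9 CPM per kb, followed by Smad7 (36.2), Smad3 (17.5), Smad4 (15), Tgfbr2 (9.50) and Ltbp3 (8.11), with no overlap between neighbours in this order. Smad2 (6.64), Tgfbr3 (6.20) and Tgfbr1 (6.16 CPM per kb) came next, with ranges that overlapped from each to the next, and Smad6 was lowest at 1.23. In eGFPhi Smad7 was highest at 44.5 CPM per kb and Tgfb1 followed at 40.2, without overlap, so the inhibitor and the ligand gene had changed places. Smad3 came next (23.9), and Tgfbr3 (20.0), Smad4 (18.8) and Ltbp3 (18.3 CPM per kb) had ranges that overlapped from each to the next. Tgfbr2 (9.24) and Smad2 (6.20) followed, and Smad6 (4.99) and Tgfbr1 (4.52 CPM per kb) overlapped at the bottom. Per length the co-receptor Tgfbr3 was below Tgfbr2 in all eGFPlo libraries and above it in all eGFPhi libraries. The order depends on the annotated exon length, since which isoforms were expressed was not measured.

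The wider pathway was described with 7 lists of other genes. Of 116 listed genes 111 were in the table and 98 were tested, and 49 of these were higher, 18 lower and 31 not past the threshold, and the median log2 fold change was 0.20. The share past the threshold, 68.4%, was near the background of 64.0%, which is made up of 32.3% higher and 31.7% lower. By list the share ran from 46.2% for nuclear partners to 89.5% for target genes. With a minimum fold of 1.5 there were 26 higher and 1 lower, against 2528 higher and 1984 lower among all 18081 genes. The differences between the lists were not tested.

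Of 12 tested genes of latency and activation 8 were higher and 1 lower, with a median log2 fold change of 0.44. This list also holds the further ligand genes Tgfb2 and Tgfb3. At a low level, Tgfb3 rose 2.85-fold from 1.66 ± 0.605 to 4.62 ± 0.819 CPM (edgeR adjusted p = 0.00148), opposite in direction to Tgfb1. Tgfb2 did not pass, at 1.45 ± 0.531 against 1.85 ± 0.113 CPM (edgeR adjusted p = 0.355). Thbs1, whose product thrombospondin 1 can release active TGF-beta, rose 1.40-fold from 102 ± 2.98 to 143 ± 3.94 CPM. Itgav, the alpha V integrin subunit that binds the latent complex, rose 1.56-fold from 37.4 ± 1.66 to 58.3 ± 3.20 CPM. The membrane protease gene Mmp14 rose 2.77-fold from 6.47 ± 1.31 to 17.9 ± 0.930 CPM, and the propeptide convertase gene Furin rose 1.31-fold. Their adjusted p in edgeR was 1.95e-05, 5.64e-05, 7.34e-05 and 2.71e-04. With a coefficient of variation of 0.2 Thbs1 and Furin did not pass (0.0954 and 0.197).

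Among other receptors of the superfamily 6 of 9 tested genes were higher and 2 lower, with a median of 1.02. Bmpr2, the type II BMP receptor, rose 2.04-fold from 112 ± 3.65 to 227 ± 4.26 CPM (adjusted p = 3.49e-07). Eng, encoding the co-receptor endoglin, which is structurally related to betaglycan, rose 2.35-fold from 66.5 ± 2.44 to 156 ± 6.32 CPM (adjusted p = 5.75e-07). The decoy receptor gene Bambi rose 1.71-fold from 10.8 ± 0.213 to 18.4 ± 0.611 CPM, and the activin receptor gene Acvr2b rose 2.02-fold from 4.61 ± 0.233 to 9.29 ± 0.412 CPM.

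Of 11 tested BMP and activin ligands and BMP Smads 7 were higher and 0 lower, with a median of 0.72, at mostly low levels. Fstl1, encoding a secreted follistatin-like protein, rose 5.90-fold from 6.09 ± 1.35 to 35.7 ± 6.04 CPM. Inhba, the activin beta A subunit gene, rose 14.9-fold from 0.441 ± 0.160 to 6.46 ± 1.28 CPM. Bmp1, whose product is a metalloprotease and not a growth factor, rose 2.20-fold from 13.2 ± 1.02 to 29.2 ± 2.15 CPM. Bmp4 had 3 counts in eGFPlo, all in replicate 3, and 38, 73 and 64 counts in the eGFPhi libraries, a ratio of 45.3 with a 95% counting interval of 15.2 to 222.

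Of 22 modulators of receptors and Smads 8 were higher, 3 lower and 11 not past the threshold, with a median of 0.10. The members that rose included corepressors: Ski rose 2.62-fold from 67.0 ± 7.34 to 176 ± 6.90 CPM (adjusted p = 4.19e-06) and Skil, a feedback target that encodes SnoN, rose 1.76-fold from 116 ± 4.62 to 205 ± 8.23 CPM. Pmepa1, another feedback inhibitor, rose 2.67-fold from 4.02 ± 0.617 to 10.8 ± 0.857 CPM. Tgif1, also a Smad corepressor, fell from 50.6 ± 4.01 to 30.4 ± 2.64 CPM and was 1.66-fold lower.

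Of 13 tested nuclear partners 2 were higher and 4 lower, with a median of -0.02. Runx3, a Runt-domain transcription factor that partners with Smads, was 2.22-fold lower, at 184 ± 3.98 against 82.7 ± 2.28 CPM (adjusted p = 2.40e-07), while its relative Runx1 rose 1.19-fold from 275 ± 16.3 to 328 ± 9.77 CPM. The pocket protein gene Rbl1 and the zinc finger repressor gene Zeb2 were 1.37-fold and 1.27-fold lower. Of 12 non-Smad kinases and their partners 4 were higher and 5 lower, with a median of -0.09: the adaptor gene Tab2 rose 1.36-fold and the kinase gene Akt1 1.13-fold, and the ubiquitin ligase gene Traf6 and the GTPase gene Rhoa were 1.24-fold and 1.14-fold lower. These 4 genes did not pass with a coefficient of variation of 0.2, nor did Runx1, Rbl1 and Zeb2.

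Of 19 tested target genes of TGF-beta or BMP signals 14 were higher and 3 lower, with a median of 0.54 against 0.00 over all genes. The share past the threshold was 89.5%, against 64.0% of all tested genes, and this difference was not tested. Hes1, a transcriptional repressor gene best known as a Notch target, rose 6.91-fold from 20.9 ± 1.84 to 145 ± 0.734 CPM (adjusted p = 6.59e-08). Id1, an inhibitor of basic helix-loop-helix factors and a classic BMP target, rose 4.23-fold from 5.82 ± 0.541 to 24.7 ± 0.669 CPM. Col4a1, a collagen IV gene, rose 2.26-fold from 54.0 ± 1.45 to 122 ± 1.14 CPM, and Tsc22d1, a leucine zipper gene induced by TGF-beta, rose 1.63-fold from 235 ± 1.03 to 384 ± 13.9 CPM. Many of these genes answer to other signals as well, and pathway activity itself was not measured.

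**Figure D4:**
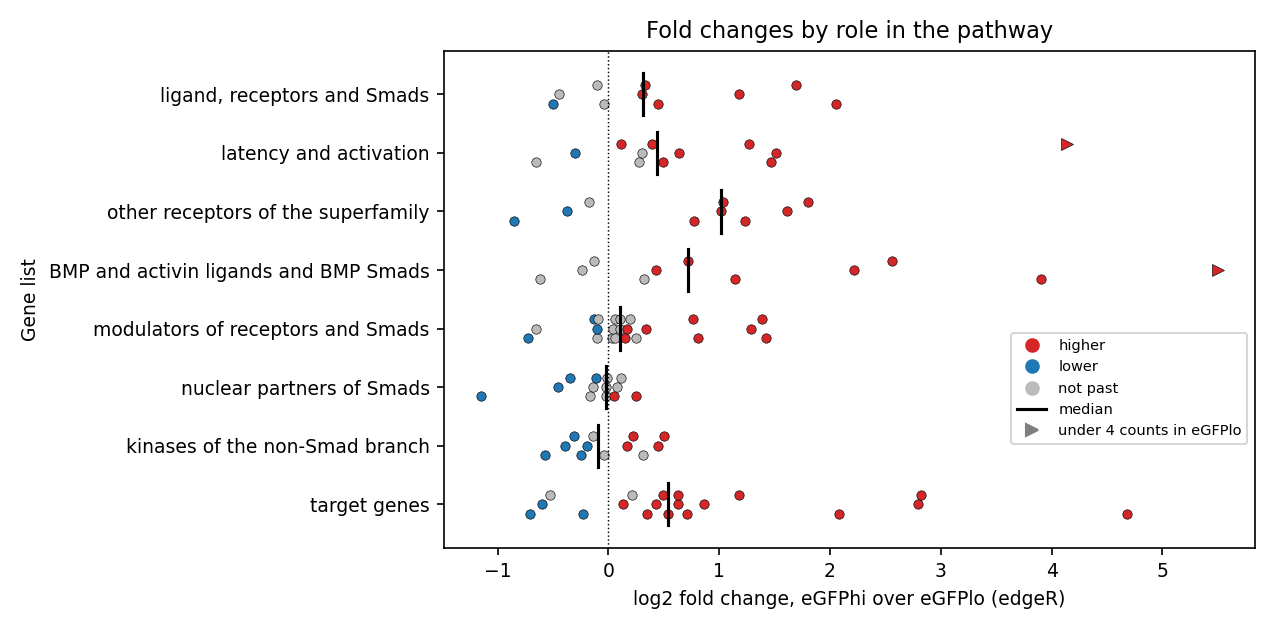
Log2 fold change (eGFPhi over eGFPlo, edgeR) of the 10 genes and of the tested genes in 7 further lists; colour gives the call, black lines the medians, and triangles genes with under 4 counts in eGFPlo, drawn at their bound or count ratio. Medians are 1.02 for other receptors and 0.54 for targets, and lie close to 0 for modulators, nuclear partners and kinases.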

How the data were processed

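Counts per gene and library were deposited by the authors, per the file headers, beside FPKM values that the authors also deposited. RNA was poly-A selected and made into libraries with a stranded kit, per the labels' protocols. The submitters' processing notes name CASAVA 1.8, HISAT2, StringTie and edgeR without roles, and the builds hg38 and GRCm38. Counter and strand setting: not given in the sources used here. Of 26776 gene identifiers 26710 occur in GENCODE M21, where the 10 members have the same coordinates.

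The whole table was filtered (filterByExpr, minimum count 10, minimum total 15), leaving 18081 genes and 99.7 to 99.9% of counts, and fitted in R 4.3.3 with edgeR 4.0.16 (TMM, quasi-likelihood, group as the only term, Benjamini-Hochberg threshold 0.05). The fit was first tested on simulated data in which 200 genes changed. In the real data 11571 genes were called, so this test does not cover scaling or false calls at such a share. Depth was 11221070 to 26058391 counts per library, and the spread between libraries adds to counting error. Ratios to a floor put 3 counts in place of the 0 of a group and take the counts of the other group as exact. Counting intervals cover counting error only.

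The report names all 10 members, at most 4 members of each list with the smallest p, Trim47, and, for the member with the smallest p, the 3 genes most like it. Single marker genes, Tgfb2, Tgfb3 and the low-count genes of the closing section were chosen after their values were seen. The members and lists were chosen with earlier results of these data known. Alternatives were other scalings (RLE, upper-quartile), filters, DESeq2 1.42.0, limma-voom (limma 3.58.1), limma on log2 of FPKM plus 1, a minimum fold of 1.5, an assumed coefficient of variation of 0.2, a replicate block, and leaving out each library.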

Additional observations from a re-analysis of the deposited data

How the results depend on the processing

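Of 160 recomputed fold changes of the 10 genes (16 alternatives each), 147 kept their direction and their side of the threshold, 11 no longer passed, 2 newly passed and 0 changed direction. With a minimum fold of 1.5, 3 of the 10 genes were higher and 0 lower, as were 2528 and 1984 of all genes and 26 and 1 of the other pathway genes. With an assumed coefficient of variation of 0.2 the counts were again 3 and 0, then 3637 and 2982, and 31 and 5. Tgfbr3, Ltbp3 and Smad6 passed under both. Leaving out each library gave 5 to 6 of the 10 genes higher and 1 to 2 lower; Smad4, Tgfbr1 and Smad2 changed sides, as given with each. The within-library difference of Tgfbr1 to Tgfbr2 then ran from -0.70 to -0.14. With the replicate block the 10 genes again gave 6 higher and 1 lower, and all genes 5551 and 5414. The pairing rests on the number alone, since deviations of same-numbered libraries correlated at r = -0.0133, 0.000555 and -0.0108 across genes. For Trim47 and the list genes named by smallest p, 29 genes in all, 462 fold changes were recomputed. Of these 20 no longer passed, each with the minimum fold or the assumed coefficient, and 0 changed direction. Upper-quartile factors moved the median of all genes to 0.03. Among the 10 genes Smad6 had the fewest counts, 52 to 61 per eGFPlo library.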

Other observations

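Several genes of the wider family stayed out of the tests because their counts were too low, and some of them, chosen after their values were seen, are given here as counts in each library. The type II receptor gene of anti-Müllerian hormone, Amhr2, had 10, 13 and 8 counts in the eGFPlo libraries and 0 in all eGFPhi libraries. Against a floor of 3 counts over the eGFPhi group, it was 13.3-fold lower. Ratios to the floor, here and below, take the counts of the other group as exact and are not lower limits. Ccn2, also known as Ctgf, is a matricellular protein gene and a common readout of TGF-beta. It had 5, 4 and 14 counts in eGFPlo and 0 in eGFPhi, 9.88-fold lower against the floor. The ligand gene Bmp6 had 6, 0 and 13 counts in eGFPlo and 0 in eGFPhi (8.16-fold lower against the floor).

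In the other direction, Acvr1c, the gene of the type I receptor ALK7, had 0 counts in eGFPlo and 3, 18 and 14 in eGFPhi. It was 9.06-fold higher against the floor in eGFPlo. The latent TGF-beta binding protein gene Ltbp2, which was tested, had 0 counts in eGFPlo and 8, 33 and 27 in eGFPhi. It was 17.6-fold higher against the floor. The repressor gene Snai1 had 2 counts in eGFPlo and 6, 18 and 14 in eGFPhi, a ratio of 14.7 with a 95% counting interval of 3.81 to 126. At such depths whether these transcripts came from stem cells or from other cells of the sorts was not tested.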
